A study of Mus musculus with 4 samples.

Results

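The genes Avp, Gal and Galr1 encode the precursor of vasopressin, the precursor of galanin and a receptor for galanin. They are 3 of the 20136 genes in the count tables. They were chosen by their measured values in the same data, namely UMIs that sat in few cells, levels that varied between neuron types and co-detection of the peptides. A UMI (unique molecular identifier) is a tag that counts each captured mRNA molecule once. The tissue was the BNST (bed nucleus of the stria terminalis, in the extended amygdala), sampled as punches from male wildtype C57BL/6J mice and measured by Drop-seq, which captures single cells with barcoded beads in droplets. The 4 libraries were each made from 6 pooled mice, with no treatment and no second genotype. The replicate is therefore the library, n = 4. The sample titles name each library as its own batch. The spread between libraries is therefore a spread between pools of mice and between batches, which cannot be told apart.

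Vasopressin is a peptide best known as the antidiuretic hormone of magnocellular hypothalamic neurons. It is also made by smaller neurons of the BNST and medial amygdala, which project to the lateral septum and other forebrain sites, are more abundant in male rodents and depend on gonadal steroids. Galanin is a peptide that many neurons store beside a classical transmitter. Its receptor GALR1 couples to inhibitory G proteins and lowers the excitability of the cells that carry it.

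In GRCm38, Avp lies on chromosome 2 from 130580620 to 130582554 and Gal on chromosome 19 from 3409915 to 3414544. Both are on the minus strand, and no other annotated gene overlaps them. Oxt, the gene of oxytocin, is the neighbour of Avp on the opposite strand, with a gap of 3565 bases between their ends. The 250 bases before the RefSeq start of each peptide gene are shown because the same few cells held most of the UMIs of both genes. They are chr2:130582589-130582838 and chr19:3414545-3414794, both read on the minus strand, with matches to the motifs searched in capitals.
Avp: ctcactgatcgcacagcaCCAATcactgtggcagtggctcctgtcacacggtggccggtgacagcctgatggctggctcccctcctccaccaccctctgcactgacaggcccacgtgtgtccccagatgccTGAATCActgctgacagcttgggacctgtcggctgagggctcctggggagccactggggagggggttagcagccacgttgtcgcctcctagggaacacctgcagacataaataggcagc
Gal: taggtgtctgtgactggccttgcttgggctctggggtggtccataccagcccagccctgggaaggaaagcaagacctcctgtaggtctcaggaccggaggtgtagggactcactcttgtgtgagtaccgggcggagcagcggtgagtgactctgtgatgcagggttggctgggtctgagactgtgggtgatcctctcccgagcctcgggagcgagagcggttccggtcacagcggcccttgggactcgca
Both strands were searched for 6 motifs: the TATA box as TATAAA, the CCAAT box, the full cAMP response element TGACGTCA, its part TGACG, which the full element contains, the nuclear receptor core AGGTCA, and the AP-1 motif TGANTCA. The Avp window held CCAAT from -232 to -228 and TGANTCA, as TGAATCA, from -119 to -113, counted back from the start. The Gal window held none of the 6. Over the 250-base windows of 32851 promoters, 33.8% held CCAAT and 6.75% TGANTCA. The shares were 12.4% for TATAAA, 1.55% for TGACGTCA, 17.8% for TGACG and 14.0% for AGGTCA. A match is a string of letters and not a binding site.

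The tables held 10200 barcodes and 14018026 UMIs, with 2640399 to 5652342 UMIs per library. After filters, 4181 cells were kept, and the median ran from 1483.5 to 2504 UMIs per cell over the libraries. GABAergic-like neurons, named from Gad1, Gad2 and other fixed markers, numbered 2049 (361 to 635 per library). Glutamatergic-like neurons numbered 130 (17 to 62 per library), and non-neuronal cells 1625. A further 377 low-depth or proliferating neurons stayed unnamed. No barcode of a kept cell occurred in more than 1 library (0 shared).

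The vasopressin precursor was found in GABAergic-like neurons and in few of them. Its 891 UMIs there came from 20 cells, 0.976% of the class (exact Clopper-Pearson interval 0.597% to 1.50%, which covers counting error only). Scaled to equal totals (CPM, the usual counts-per-total unit), libraries 1 to 4 had 124, 198, 65.2 and 0.520, and the mean was 97.1 ± 84.3 (SD, n = 4). Libraries 1 and 2 were high, library 3 was lower, and library 4 held 1 Avp UMI in this class. Glutamatergic-like neurons had 0 Avp UMIs in 130 cells, which allows a level of up to 4.59 CPM over the group and up to 2.31% of cells with an Avp UMI. This limits detection, not the share of cells that express the gene. Non-neuronal cells had 4 UMIs in 4 cells (1.46 ± 1.71 CPM), a level at which free RNA and expression are not separable. The unnamed neurons held 74 Avp UMIs in 5 cells. With each cell thinned to 1000 UMIs, the share of cells with an Avp UMI was 0.709% ± 0.600 in GABAergic-like neurons and 0.277% in non-neuronal cells. That difference, 0.432 points on average, favoured neurons in 3 of 4 libraries, with library 3 at -0.116 (p = 0.38 by an exact, two-sided permutation test that flips the signs of the library differences). At 2000 UMIs it was 0.971 points and without thinning 0.771, positive in 4 of 4 libraries at either (exact p = 0.12, the smallest possible for 4).

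Galanin precursor mRNA was present in both transmitter classes. GABAergic-like neurons held 1982 Gal UMIs in 90 cells, at 242, 487, 88.2 and 63.4 CPM in libraries 1 to 4 (220 ± 195 CPM). Glutamatergic-like neurons held 82 Gal UMIs in 18 cells, at 116, 72.3, 286 and 92.2 CPM (142 ± 97.7 CPM). GABAergic-like neurons were higher in libraries 1 and 2 and lower in libraries 3 and 4, and the ranges of the classes overlapped. By share of cells the order of the means was the opposite, with a Gal UMI in 4.39% of GABAergic-like cells (3.55% to 5.37%) and in 13.8% of glutamatergic-like cells (8.42% to 21.0%). At 1000 UMIs per cell the shares were 2.49% ± 0.696 and 7.58% ± 2.10. Since share and CPM point opposite ways, no order of the classes is read from the share.

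The order of the levels depended on a single cluster of 26 cells, described further on. Without it, the Gal level in GABAergic-like neurons was 52.5, 35.7, 38.3 and 57.0 CPM, or 45.9 ± 10.5 CPM, from 405 UMIs in 70 cells. Every library then lay below its glutamatergic-like value, and the spread between libraries was far smaller than with the cluster. Only the GABAergic-like side lost its cells richest in Gal, so its fall follows from the removal and gives no order of the classes. The glutamatergic-like values kept such cells. A single cell held 20 of the 22 Gal UMIs of library 3, and another held 27 of the 44 of library 1. This setting was chosen after the data had been seen. Outside neurons Gal had 7 UMIs in 6 cells (2.66 ± 2.13 CPM), and the share at 1000 UMIs was 0.180%. GABAergic-like neurons exceeded that background by 2.31 points in 4 of 4 libraries (p = 0.12 by the same exact test, and 4 libraries cannot give less). When edgeR was fitted to all genes for named neurons against non-neuronal cells, 36.4% of 10292 genes were higher and 35.0% lower in neurons, 71.4% in either direction. Gal had a log2 fold change of 5.81 (SE 0.28), given as a value with no test, because the members were chosen by their levels in these data. It passed the count filter through its neuron sums, since the non-neuronal sums of libraries 1 to 4 held 4, 0, 2 and 1 Gal UMIs. Avp and Galr1 did not reach the count filter of that fit.

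Galr1 (chromosome 18, 82392380 to 82406777, minus strand, with no overlapping gene) was a low-count gene in either class. GABAergic-like neurons held 95 UMIs in 74 cells, at 12.2, 15.4, 5.73 and 8.32 CPM (10.4 ± 4.25 CPM). Glutamatergic-like neurons held 29 UMIs in 16 cells, at 50.1, 45.2, 13.0 and 46.1 CPM (38.6 ± 17.2 CPM). The receptor level was thus higher in glutamatergic-like neurons in 4 of 4 libraries, but on 19, 5, 1 and 4 UMIs. Single cells of library 1 held 6, 4 and 3 of its 19. Only library 3, with 17 glutamatergic-like cells, came within the GABAergic-like range, and its 1 UMI is too few to give a direction. A Galr1 UMI was found in 3.61% of GABAergic-like cells (2.85% to 4.51%) and in 12.3% of glutamatergic-like cells (7.20% to 19.2%). At 1000 UMIs these shares were 0.887% ± 0.368 and 3.46% ± 1.56. Non-neuronal cells held 1 Galr1 UMI, a share of 0.0800% at 1000 UMIs, and GABAergic-like neurons exceeded it by 0.807 points in 4 of 4 libraries (exact sign-flip p = 0.12, again the floor for n = 4). Because the members were chosen for their pattern over the transmitter classes, the class differences carry no test.

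**Figure D1:**
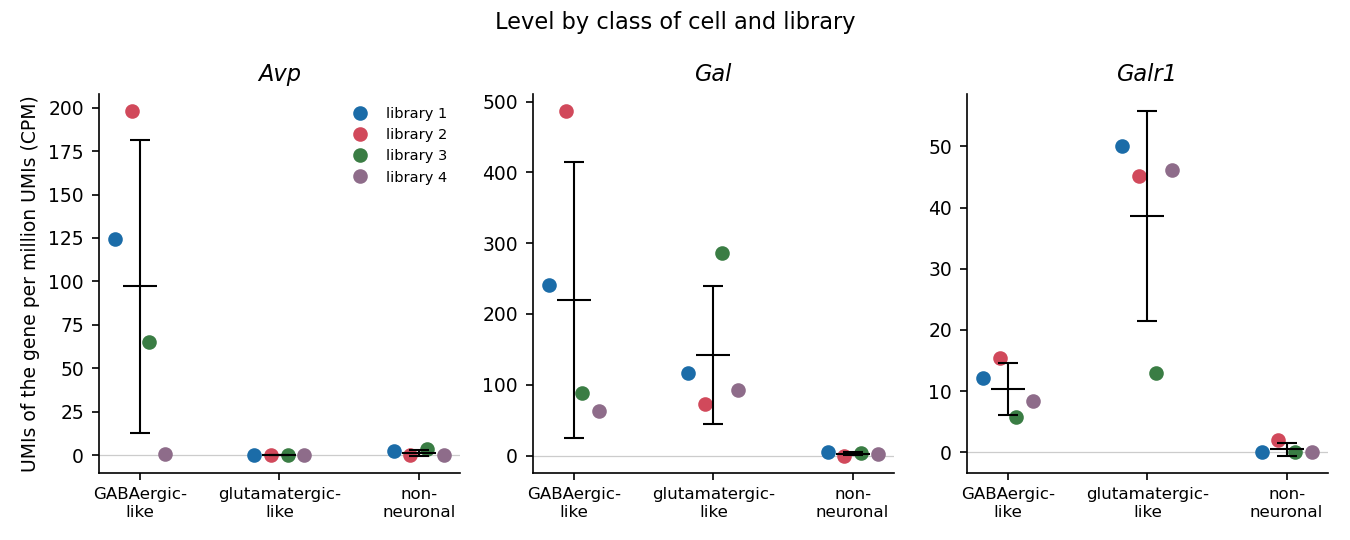
Level of each gene in CPM (linear axis) in GABAergic-like, glutamatergic-like and non-neuronal cells, with 1 point per library and the mean and SD over the 4 libraries. Avp lies at 0 in glutamatergic-like neurons in every library, the Gal ranges of the neuron classes overlap, and the Galr1 points of glutamatergic-like neurons reach 50.1 CPM.

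The remaining genes of the galanin and vasopressin-oxytocin system were sparse. Oxtr, the oxytocin receptor, which vasopressin can also bind, had 122 UMIs in 93 GABAergic-like cells, at 14.8, 17.6, 14.3 and 9.36 CPM (14.0 ± 3.42 CPM). Glutamatergic-like neurons had 0 Oxtr UMIs, which allows up to 4.59 CPM over the group (7.92 to 38.9 CPM in single libraries), and non-neuronal cells had 1. Avpr1a, the main vasopressin receptor of the brain, had 10 UMIs in GABAergic-like neurons (1.13 ± 0.345 CPM). Galr2, another galanin receptor, had 1 UMI in all named neurons. Oxt had 11 UMIs in 11 GABAergic-like cells (1.18 ± 0.502 CPM) and 7 UMIs in non-neuronal cells (3.67 ± 5.37 CPM). Lnpep, an aminopeptidase that cleaves vasopressin and oxytocin, was at 30.4 ± 7.12 CPM in GABAergic-like neurons, 30.2 ± 17.8 CPM in glutamatergic-like neurons and 20.9 ± 3.47 CPM outside neurons. Kiss1r, the kisspeptin receptor, was at 4.25 ± 0.738 CPM and 12.6 ± 7.65 CPM in the neuron classes. Galp, Galr3, Avpr1b, Avpr2 and Kiss1 were not analysed here.

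Avp transcripts were packed into a handful of cells. In GABAergic-like neurons a single cell held 27.3% of the Avp UMIs, 4 cells held 59.7% and 10 cells held 97.5%. Of the 20 positive cells, 7 had 1 UMI, while 7 cells had 20 to 99 UMIs (510 in all) and 2 cells had 100 or more (343 in all). Among 3153 genes with a total UMI number within 2-fold of Avp, the median gene was found in 567 cells and had 5.56% of its UMIs in its top 10 cells. By library over all kept cells, the top cell held 51.2%, 27.7%, 96.8% and 97.5% of the Avp UMIs of libraries 1 to 4.

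Gal was less concentrated than Avp but had a similar tail. Its top cell in the GABAergic-like class held 10.6% of the UMIs, 6 cells with 100 or more UMIs held 55.3%, and 10 cells held 71.2%. At the other end, 27 of the 90 positive cells had 1 UMI. The 1664 genes with a like total had a median of 922 cells and of 4.28% in the top 10 cells. By library over all kept cells, the top cell held 21.9%, 23.4%, 47.6% and 43.4% of the Gal UMIs. Galr1 had few UMIs per cell, with 61 of its 74 positive cells at 1 UMI, 8 UMIs in the top cell and 29.5% in the top 10 cells. The median of 3442 genes with a like total was 16.7%, and 165 of them had a higher share than Galr1. The genes were chosen for this concentration, so these values are a description. Among 24 neuropeptide genes ranked by the top-10 share, Ucn3 was first, Avp was second and Gal was at place 9, while Sst (34.5%) stood at place 14 and Pnoc (11.3%) at place 24. Their totals ran from 21 UMIs for Ucn3, in 3 cells that fixed its share at 100%, to 8437 for Sst. The median share of genes with a like total was 40.6% for Ucn3 and 3.27% for Sst. The places therefore do not compare genes of unlike totals. Pnoc encodes prepronociceptin, the peptide precursor named in the title of the study.

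**Figure D2:**
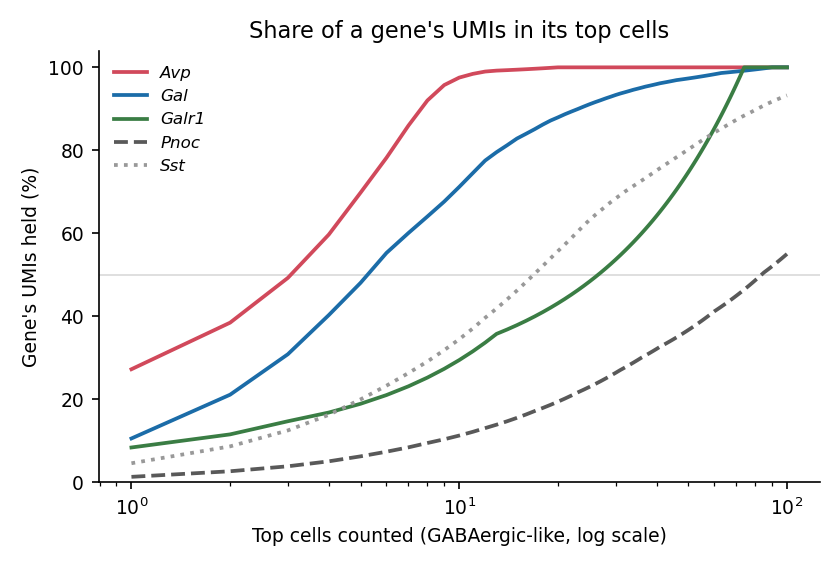
Share of each gene's UMIs (percent) held by its top cells in GABAergic-like neurons, against the number of top cells counted on a log scale. The Avp line reaches 97.5% at 10 cells, Gal 71.2% and Galr1 29.5%, beside Sst (dotted, 34.5%) and Pnoc (dashed, 11.3%).

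Most cells with many Avp UMIs also had many Gal UMIs. The top cell, in library 1, had 243 Avp and 209 Gal UMIs of 6554 UMIs, or 3.71% and 3.19% of its mRNA molecules counted. In library 2 the leading cells had 100 Avp and 154 Gal UMIs, 93 and 143, 75 and 210, and 69 and 193. Library 3 had 1 such cell, with 90 Avp and 70 Gal UMIs. In library 4 it was a cell of the unnamed low-depth cluster, with 39 Avp and 20 Gal UMIs of 1224. All 10 neurons with 20 or more Avp UMIs had a Gal UMI, and all 6 neurons with 100 or more Gal UMIs had 20 or more Avp UMIs. The lowest of these Gal values was 1, in a cell of library 1 with 33 Avp UMIs. Over all neurons 17 of the 25 cells with Avp had Gal. The reverse did not hold, since 100 of the 117 neurons with Gal had no Avp UMI.

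Within the GABAergic-like class, 13 of the 20 Avp-positive cells had Gal (65.0%), against 77 of 2029 Avp-negative cells (3.79%). By library the counts were 5 of 9, 7 of 8, 1 of 2 and 0 of 1. Of cells with at least 2 Avp UMIs, 12 of 13 had Gal. Avp-positive cells were deeper, with a median of 6138.5 UMIs against 3613. At 1000 UMIs per cell the shares were 52.8% and 1.97%. Without the 26-cell cluster, which held 12 of the 20 Avp-positive cells, the mean difference over libraries at 1000 UMIs was -1.17 points, against 39.3 with it. That setting left 8 cells with 15 Avp UMIs, too few to show whether Gal goes with Avp outside the cluster. Among the unnamed neurons, cells with 39, 16, 14 and 4 Avp UMIs had 20, 28, 15 and 9 Gal UMIs, and 1 cell with 1 Avp UMI had 0. In the other direction within the GABAergic-like class, 13 of the 90 Gal-positive cells had Avp (14.4%), against 7 of 1959 Gal-negative cells (0.357%). The pair was known to occur together when it was chosen, so no test is given.

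**Figure D3:**
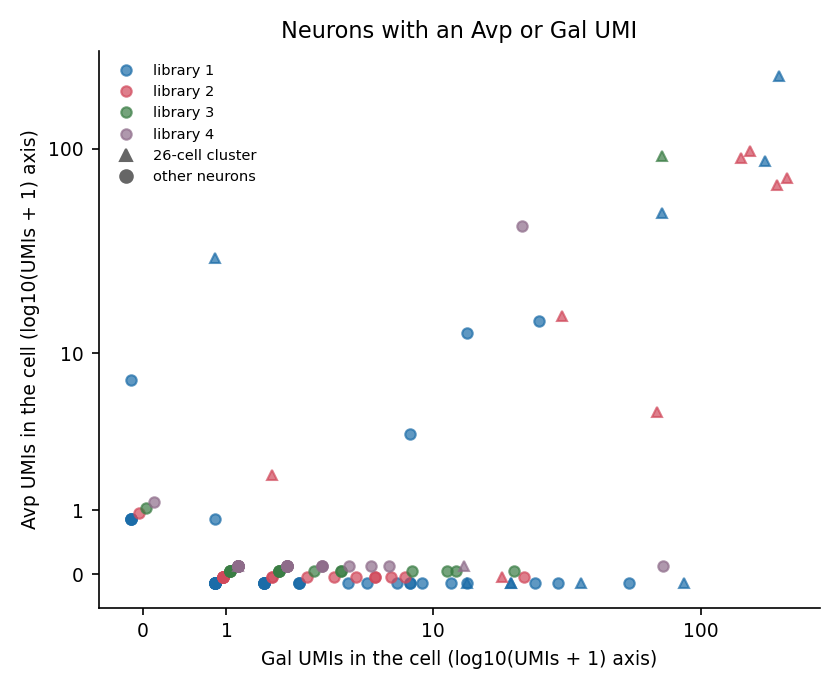
Avp UMIs against Gal UMIs in each neuron with a UMI of either gene, on log10(UMIs + 1) axes, with points marked by library. Cells with many Avp UMIs, up to 243, lie mostly to the right, at high Gal, with 1 exception at 33 Avp and 1 Gal UMIs, while most cells with Gal lie along the bottom at 0 Avp UMIs.

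Galr1 was detected more often in cells with Gal than in cells without it, both as counted and at equal depth. It was found in 11 of 90 Gal-positive cells (12.2%) and in 63 of 1959 Gal-negative cells (3.22%), but Gal-positive cells were deeper, at a median of 6101.5 against 3544 UMIs. At 1000 UMIs the shares were 3.19% and 0.798%. The mean difference over libraries was 2.33 ± 2.94 points and had the same sign in each of the 4 (exact sign-flip p = 0.12, the floor for n = 4). In library 3 the sign came from a cell with 2 Gal UMIs and 1 Galr1 UMI, and in library 4 from a cell with 66 and 1. The 26-cell cluster held 20 of the 90 Gal-positive cells, 8 of the 74 cells with Galr1 and most of the cells with both. Under the alternative settings the mean difference was as low as 0.704 points. Between Galr1-positive and Galr1-negative cells, the difference in Gal level kept its direction without that cluster. It had the opposite sign with negative cells matched for cluster and depth. For Avp, 7 of 20 positive cells had Galr1 (35.0%), against 67 of 2029 (3.30%). At 1000 UMIs that difference was 5.07 ± 6.95 points, positive in libraries 1 and 2, and libraries 3 and 4, with 2 and 1 Avp-positive cells, had no Galr1 in them (exact sign-flip p = 0.50).

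The clusters were classed by the same transmitter genes that are counted here in single cells, so these counts are a description. All 25 neurons with Avp carried at least 1 of Gad1, Gad2 and Slc32a1, the genes of GABA synthesis and vesicular loading, and 0 had Slc17a6 or Slc17a7, the glutamate transporters. Of the 117 neurons with Gal, 99 had a GABA gene and 16 had a glutamate transporter. For Galr1 the numbers were 78 and 15 of 94. Most neurons had a GABA gene in any case. Among neurons without Avp, 91.6% had a GABA gene and 5.18% a glutamate transporter. Those shares were 92.0% and 4.72% without Gal, and 92.0% and 4.71% without Galr1. Besides Avp, the list of magnocellular hypothalamic markers held 5 genes. In the 20 Avp-positive GABAergic-like cells Sim1 and Otp had 0 UMIs, Pou3f2 had 1, Oxt had 3 in 3 cells and Nrgn had 22 in 11 cells. In the 2029 negative cells these genes had 1, 6, 290, 8 (in 8 cells) and 4497 UMIs, the last in 1125 cells, so Sim1 and Otp were near 0 in both groups. The 8 monoaminergic markers summed to 97.4 CPM in Gal-positive cells (73.0 to 121 over libraries, 4 of 8 detected) and to 71.4 CPM in Gal-negative cells (58.3 to 104). In the Gal-positive cells Ddc had 30 UMIs in 20 cells, Th had 23 and Slc18a2 had 5, while Dbh had 0 in both groups.

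Clustering of the neurons gave 15 clusters, 12 of them GABAergic-like and 1 glutamatergic-like, although the members were not among the variable genes used. The cluster of 26 cells had Avp and Gal as its leading genes, followed by Arhgap36, Cbln2, Medag, H2-Q2 and Ecel1. Its cells came mainly from libraries 1 and 2 (12, 10, 2 and 2 cells). It held 876 Avp UMIs in 12 cells, or 98.3% of the Avp UMIs of named neurons, at 4781 and 6275 CPM in libraries 1 and 2. It held 1577 Gal UMIs in 20 cells, or 76.4%, at 7520 and 14363 CPM in those libraries. Libraries 3 and 4 had too few of its cells for a level. Galr1 had 14 UMIs in 8 of its cells, at 56.1 and 157 CPM. All 12 neuron markers were detected in this cluster and no UMI of a glutamatergic marker was.

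The cluster was not equally distinct under other settings. With a stricter minimum of genes per cell the matching cluster had 32 cells, 23 of them shared with the 26. With the members kept among the variable genes it had 24 cells (19 shared). At a Leiden resolution of 2 it had 97 cells (26 shared), with a mitochondrial limit of 5% it had 145 (16 shared), and with doublets kept it had 189 (25 shared). In the last 3 the cells lay in a larger group of neurons.

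Outside that cluster Gal was found mainly in 3 others. The cluster led by Lhx8 and Rorb, transcription factors, had 197 Gal UMIs in 19 of 248 cells, at 114, 72.1, 291 and 237 CPM (179 ± 103 CPM). Single cells held all 23 of these UMIs in library 2 and 66 of the 69 in library 4. The glutamatergic-like cluster followed at 142 ± 97.7 CPM and the cluster led by Cck and Greb1 at 71.4 ± 47.3 CPM, with 98 UMIs in 32 of 323 cells. These neighbours in the order overlapped in their spread over libraries. The cluster led by Tac2 and Ebf1 had 35.5 ± 61.9 CPM, with 79 of its 82 Gal UMIs in library 1, and the one led by Zic1 and Zic4 had 20.9 ± 28.8 CPM. The cluster led by Slc17a8 had 0 Gal UMIs, which allows up to 3.54 CPM. The unnamed low-depth cluster, with 81 Gal UMIs in 9 cells, was at 147 ± 173 CPM.

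For Galr1 the glutamatergic-like cluster (38.6 ± 17.2 CPM) had the highest mean of the clusters with values in at least 3 libraries, although its library 3, at 13.0 CPM, lay within the range of others. The clusters led by Tac2 and Ebf1 (17.5 ± 5.50 CPM), by Slc17a8 (13.0 ± 2.56 CPM), by Cck and Greb1 (10.8 ± 7.56 CPM) and by Lhx8 and Rorb (7.79 ± 6.51 CPM) did not differ from their neighbours beyond the spread. No Galr1 UMI was found in the clusters led by Ppp1r1b, Prkcd, Tshz1 and Vipr2, which allows up to 5.36, 9.62, 14.8 and 32.9 CPM. The last 3 limits lie above the mean of the Lhx8 and Rorb cluster, so these zeros do not set those clusters apart from it. Avp outside its own cluster had 11 UMIs in 4 cells of the Lhx8 and Rorb cluster and few elsewhere.

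**Figure D4:**
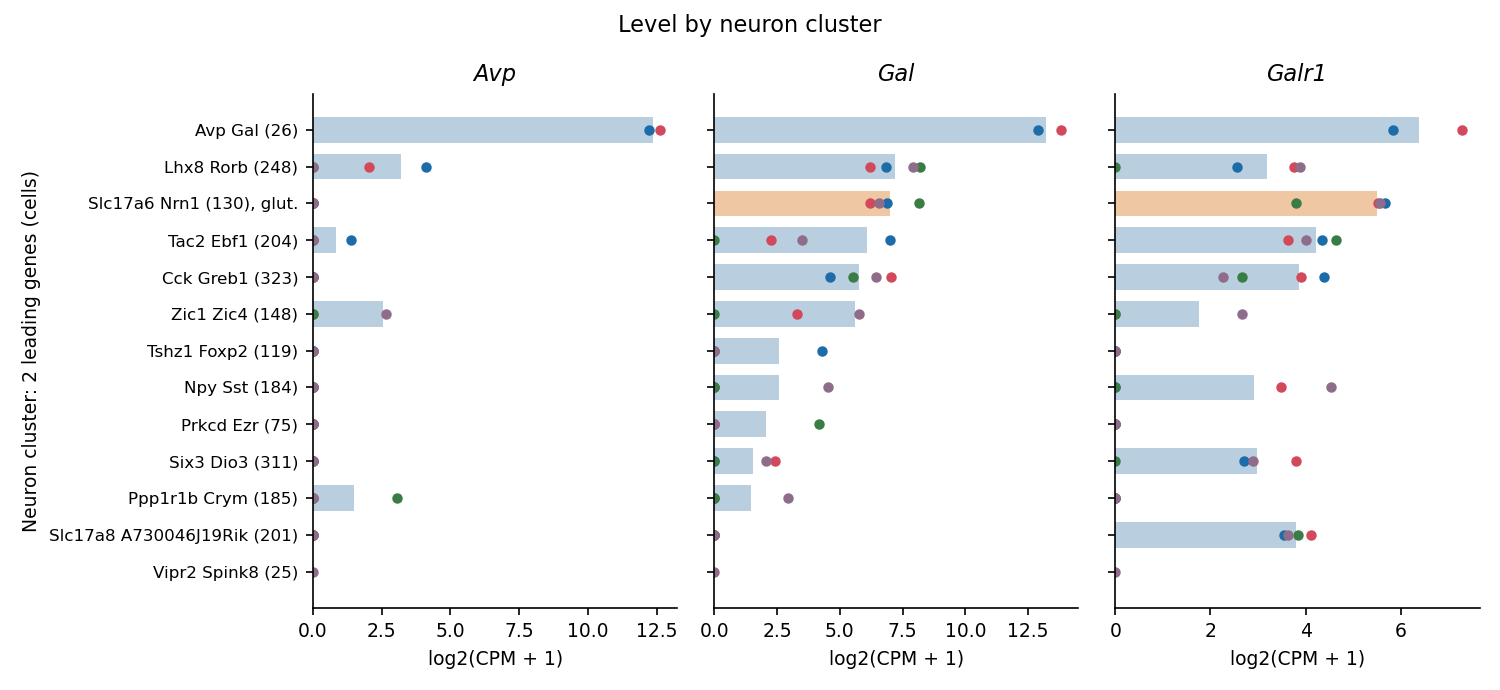
Level of Avp, Gal and Galr1 as log2(CPM + 1) in the 13 named neuron clusters, each named by 2 leading genes and its number of cells, with bars for the cells pooled over libraries (orange for the glutamatergic-like cluster) and points for libraries with at least 10 of its cells. Avp is high in the cluster of 26 cells alone, Gal also appears in the Lhx8, glutamatergic-like and Cck clusters, and Galr1 is spread over more clusters.

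Across the 13 named clusters, pooled over libraries, the genes most like Gal in log2(CPM + 1) among 10501 genes were Prdx1, Cbln2, Medag, Ndufa1 and Grp (Pearson r 0.88 to 0.90). Cbln2, a secreted synapse organiser of the cerebellin family, had 720 CPM in the 26-cell cluster against a median of 9.61 CPM over the others, and Medag had 178 against 3.99 CPM. Prdx1 and Ndufa1 were broadly present, at 333 and 464 CPM there against 207 and 244 CPM. For Avp the nearest genes were Sptssa (0.87), Dhx38 (0.86), Cers2 (0.84), C030039L03Rik (0.82) and Fancm (0.82). For Galr1 they were Denr, Slc41a3, Glra1, Ssx2ip and Terf2ip (0.94 to 0.95). Glra1, a subunit of the glycine receptor, had 41.6 CPM in the 26-cell cluster against a median of 5.98 CPM. Avp and Gal correlated at 0.80, Gal and Galr1 at 0.71 and Avp and Galr1 at 0.48. These are descriptions over 13 points that share libraries and rest on few cells.

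To describe the neurons that carry galanin, the 90 Gal-positive and the 1959 Gal-negative GABAergic-like cells were summed in each library and compared with edgeR's quasi-likelihood test, with library as a block (31, 21, 15 and 23 positive cells in libraries 1 to 4). Of 8612 genes tested, 102 were higher in Gal-positive cells (1.18%) and 89 were lower (1.03%), 2.22% in all, at an adjusted p of 0.05. Pnoc, Cck, Cartpt and Tac1 were higher, and Penk, Sst, Npy and Crh were lower. Of the list of other neuropeptides, 11 could be tested, 4 rose, 4 fell and 3 did not pass, with a median log2 fold change of -0.61, beside -0.01 over all genes. Only Oxtr (log2 fold change -0.08) and Lnpep (-0.46) of the galanin and vasopressin-oxytocin list could be tested, and neither passed.

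Cck, the gene of cholecystokinin, was at 333, 868, 1394 and 1642 CPM in the Gal-positive cells of libraries 1 to 4, against 198, 65.2, 251 and 94.3 CPM in the negative cells. The groups did not overlap, with a log2 fold change of 2.75 (SE 0.26, adjusted p 1.03e-09). Cartpt, the precursor of the CART peptides, was at 1102, 2407, 2515 and 2226 CPM against 604, 371, 365 and 327 CPM. These groups did not overlap either (log2 fold change 2.28, SE 0.17, adjusted p 6.74e-12). Pnoc was at 417, 687, 302 and 411 CPM against 155, 107, 125 and 119 CPM, again without overlap (1.84, SE 0.17, adjusted p 7.43e-10). Tac1, the gene of substance P, was at 597, 755, 673 and 566 CPM against 346, 257, 275 and 208 CPM (1.25, SE 0.13, adjusted p 9.67e-09). Without the 26-cell cluster the Tac1 difference was 0.31 on the log2 scale (adjusted p 0.84), so its call rested on those cells.

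Among the peptides that fell, Sst, the gene of somatostatin, was at 333, 7.55, 9.75 and 173 CPM against 1049, 498, 426 and 1941 CPM (log2 fold change -2.70, SE 0.23, adjusted p 1.45e-10). Npy, the gene of neuropeptide Y, was lower in 4 of 4 libraries (-2.63, adjusted p 1.98e-08), although library 4 had 347 CPM in its Gal-positive cells. Penk, the enkephalin precursor, was at 410, 128, 0 and 45.6 CPM against 616, 820, 654 and 1049 CPM (-2.11, adjusted p 3.95e-06). Crh, the corticotropin-releasing hormone gene, was lower by the same test (-1.75, adjusted p 1.02e-06).

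The other lists held fewer changes. Of 15 genes of peptide processing and granins, 4 rose (Cadps2 0.95, Resp18 0.91, Scg2 0.49 and Pcsk1n 0.44 on the log2 scale), 0 fell and 11 did not pass, and the median was 0.27. Resp18 and Pcsk1n are secretory granule proteins, Scg2 is a granin and CADPS2 primes dense-core vesicles for release. In the sex steroid list 2 of 4 genes rose, with a median of 1.14. Esr1, the estrogen receptor alpha gene, was higher in 4 of 4 libraries (1.29, adjusted p 0.0451), and Greb1, an estrogen-responsive gene, in 3 of 4 (2.10, adjusted p 0.00267). Pgr, the progesterone receptor gene, had a log2 fold change of 1.00 and did not pass. In the list of stress and peptide receptors 0 of 11 rose and 1 fell, which was Nr3c1, the glucocorticoid receptor gene (-0.96). Of 26 transcription factors 3 rose (Satb1 1.90, Dlx1 1.17 and Nr2f2 0.85) and 4 fell (Bcl11b -2.87, Meis2 -1.95, Foxp1 -1.05 and Six3 -1.05), with a median of -0.10.

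Among genes with at least 20 UMIs that moved one way in every library, the largest rises outside the lists were those of Cbln2 (log2 fold change 2.69), Arhgap36 (2.60), Syne2 (2.29), H2-Q2 (2.23), Cited1 (2.18) and Gadd45a (2.05). Cbln2 was at 279, 362, 39.0 and 18.2 CPM against 32.2, 36.7, 26.3 and 14.3 CPM, so that libraries 1 and 2 were high and the groups overlapped. Without the 26-cell cluster its difference was 0.31 (adjusted p 0.92) and that of Arhgap36 was -0.43. Slc17a8, the vesicular glutamate transporter VGLUT3, had 0 UMIs in the Gal-positive cells and 484 in the negative cells, at least 12.1-fold lower when set at the limit of 3 UMIs over the group. Tnnt2 (0 against 192) and Cntn4 (0 against 128) were at least 4.82-fold and 3.21-fold lower. Zeb2 (-3.71), Igfbp4 (-3.53), A730046J19Rik (-3.53), Cnih3 (-3.32) and Pou3f1 (-3.24) followed, each with 1 to 3 UMIs in the positive cells.

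Gal-positive cells were deeper than Gal-negative cells. Of the 36 named genes, 17 could be fitted with negative cells matched for depth, all 17 kept their direction and 10 still passed, which were Cck, Cartpt, Pnoc, Tac1, Resp18, Crh, Npy, Sst, Nr3c1 and Bcl11b. With cells matched for cluster as well as depth, 15 could be fitted, 12 kept their direction and 4 passed (Cck, Cartpt, Pnoc and Meis2). The differences of Npy (0.68), Penk (0.066) and Nr2f2 (-0.056) had the opposite sign in that fit. Without the 26-cell cluster, 22 of 34 passed. Among the fits that left out a library, the one without library 2 moved the counts most, to 45 genes higher and 43 lower. Of the 36, 21 passed with each library left out in turn, and among those that did not, Esr1 had a log2 fold change of 0.93 without library 2 and 1.09 without library 4, Greb1 1.76 and 1.77 without these, and Nr3c1 -0.88, Scg2 0.37, Nr2f2 0.56 and Syne2 1.45 without library 2. The others were H2-Q2 (without library 1), Tnnt2 (1), Pou3f1 (2 or 4), Gadd45a, Cntn4 and A730046J19Rik (2, 3 or 4), Zeb2 and Six3 (1, 2 or 3) and Foxp1 (any library). Markers of other cells were summed beside these differences, and their part in them was not tested. The 8 astrocyte markers summed to 403 CPM in Gal-positive cells (246 to 578 over libraries, 4 of 8 detected) and to 262 CPM in Gal-negative cells (226 to 284). The 8 oligodendrocyte markers summed to 215 CPM (145 to 338) and 235 CPM (177 to 340). The 4 cholinergic markers summed to 66.0 CPM (0 to 380, with Slc5a7 at 32 UMIs and Chat at 4) and 10.4 CPM (5.83 to 23.7). A gene on the opposite strand overlaps Dlx1, Nr2f2, Penk, Gadd45a, Pcsk1n, Resp18, Cadps2, Greb1, Cnih3, Six3, Pou3f1, Zeb2 and Satb1, and because the counting strand is not given in the sources used here, their reads cannot be separated from that partner. H2-Q2 belongs to a family of near-identical genes and is uncertain for that reason.

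Avp-positive cells were too few for such a fit, with 9, 8, 2 and 1 cells in libraries 1 to 4, and are described by their counts. Of the 20 cells, 16 had Pnoc, against 422 of 2029 Avp-negative cells (47.2% and 9.22% at 1000 UMIs). Tac1 was found in 14 of 20 against 303 of 2029 (48.4% and 10.4% at 1000 UMIs). Cartpt was in 10 of 20 against 448 of 2029 (24.4% and 14.3% at 1000 UMIs). At that depth Pnoc and Tac1 were higher in 3 of 4 libraries and Cartpt in 2 of 4. Penk was in 0 of the 20 cells and in 668 of 2029. Astrocyte markers summed to 519 CPM in Avp-positive cells (0 to 717 over libraries, 2 of 8 detected) and to 268 CPM in negative cells (230 to 299), and in the positive cells Aldoc had 54 UMIs while Aqp4 and Gja1 had 0. Oligodendrocyte markers summed to 181 CPM (0 to 234) and 234 CPM (174 to 335). The part of these markers in the counts was not tested.

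The cells with the receptor were compared in the same way, 74 Galr1-positive against 1975 Galr1-negative GABAergic-like cells (30, 23, 7 and 14 positive cells). Of 8712 genes, 13 were higher (0.149%) and 36 were lower (0.413%), 0.562% in all. Cbln2 was higher in 4 of 4 libraries, at 208, 225, 75.4 and 17.4 CPM against 38.5, 47.9, 25.8 and 14.5 CPM (log2 fold change 2.16, SE 0.27, adjusted p 6.21e-12). The groups overlapped, and without the 26-cell cluster the difference was 0.63 (adjusted p 0.96). S100a10 (1.56), Slc6a15 (1.00), Gabrq (0.98), Parm1 (0.95), Ecel1 (0.92) and Gpr101 (0.81) also rose. With negative cells matched for cluster and depth, the Ecel1 difference was -0.27. Gabrq encodes the theta subunit of the GABA-A receptor. Among the falls was Ppp1r1b, the gene of the signalling protein DARPP-32, at 1 UMI against 860 (-5.44). Arpp21, which encodes another cAMP-regulated phosphoprotein, was at 76.1, 264, 101 and 174 CPM against 695, 529, 632 and 771 CPM, without overlap (-2.16, SE 0.18, adjusted p 1.49e-26), but its difference was 0.010 with negative cells matched for cluster and depth. Crym (-2.98), Pde7b (-3.65), Ddn (-3.65), Hist1h2bc (-3.67), Igfbp4 (-3.07) and Ramp1 (-2.66) were lower too. Ppp1r1b, Arpp21, Pde7b, Ddn, Cadps2 and Ebf1 overlap genes of the opposite strand, and Hist1h2bc has near-identical family members, so their counts are uncertain in origin.

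In the lists, 1 of 11 other neuropeptides rose and 2 fell in Galr1-positive cells, with a median log2 fold change of -0.20, beside -0.05 over all genes. Cartpt was at 48.0, 334, 252 and 34.7 CPM against 686, 533, 531 and 448 CPM (-2.01, adjusted p 4.47e-21). Penk was lower by the test (-1.11) but in 3 of 4 libraries, and the rise of Npy (0.88) came from 2 of 4 libraries, with 0 CPM in the positive cells of the other 2. Without library 2 the Npy difference was -0.68 and without library 4 it was -0.57. Vgf fell (-1.20) and Cadps2 rose (1.01), the only genes of 15 of peptide processing to pass, and 0 of 13 receptors and 0 of 3 sex steroid genes did. Ebf1 rose (1.91, in 3 of 4 libraries) and Bcl11b (-1.27), Foxp2 (-1.98) and Meis2 (-1.13) fell among 26 transcription factors. Gal had a mean of 981 CPM in Galr1-positive and 180 CPM in Galr1-negative cells and was higher in 3 of 4 libraries, and Avp had 320 and 81.8 CPM and was higher in 2 of 4, given as values with no test. Leaving aside Avp and Gal, which are given no test here, Cbln2, Ppp1r1b, Crym, Arpp21, Cartpt and Meis2 passed with each library left out in turn, and the other named genes did not. Astrocyte markers summed to 374 CPM in Galr1-positive cells (233 to 476) and 266 CPM in negative cells (227 to 293), and their part was not tested. Only 11 of the named genes could be fitted at matched depth and only Arpp21 then passed, and DESeq2's Wald test called 2 genes higher and 4 lower.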

How the data were processed

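The labels describe Drop-seq libraries with 3' indexing from BNST punches, each from a pool of mice. The deposited tables hold raw UMI counts per gene and barcode, per the file headers and values, and the submitters' processing notes name bcl2fastq 2.18.0.12, STAR 2.4.2a, Picard 2.2.4 and the build mm10 (GRCm38). The counting strand is not given in the sources used here. All columns belonged to the 4 libraries. The members and the gene lists were chosen with earlier results of these data known.

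Barcodes with at least 400 genes and at most 10% mitochondrial UMIs were kept (4239), and 58 doublets (1.37%; Scrublet, expected rate 0.05, run in scanpy 1.11.5) were removed, which left 4181 cells with 85.9% of the UMIs. Cells were clustered on 2000 variable genes, without Pnoc, Xist, mitochondrial genes and the members, over 30 principal components with the Leiden method (igraph 0.11.9) at resolution 1, and neurons were clustered again. Clusters were named only from a fixed marker list. UMI counts were summed per library and group of cells and scaled to CPM. Counts were tested with edgeR 4.0.16 in R 4.3.3 (filterByExpr, TMM, quasi-likelihood F-test, Benjamini-Hochberg over all genes tested, threshold 0.05). A library entered with at least 5 positive cells and a split was tested with at least 3 libraries. The splitting gene was left out. The SE is the log2 fold change divided by the square root of F. Library was a block, because the sums compared within a library share its mice. DESeq2 1.42.0 was an alternative. The fits were tested on simulated data.

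For shares, each cell was thinned to 1000 UMIs by its expected value, with 144 GABAergic-like, 11 glutamatergic-like and 665 non-neuronal cells left out as shallower. A count of 0 was given the limit of 3 counts. Intervals are 95% Clopper-Pearson intervals and, like these limits, cover counting error only. Chi-square statistics of library pairs, divided by their degrees of freedom, were 4.14 to 20.7, so no library repeats another. Named genes were the 3 members, the detected genes of their system, the 8 largest rises and the 8 largest falls that passed in one direction in every library with at least 20 UMIs, list genes that passed, and the 5 genes most like each member across clusters. Pgr, a list gene named without a call, was chosen after its values were seen. Gene names were looked up in GENCODE vM21, which held 18830 of 20136 (93.5%). Promoter windows came from RefSeq on GRCm38.p6, which listed Avp and Gal. Statistics used Python 3.11.15, numpy 2.4.6, scipy 1.17.1 and pandas 2.3.3, and figures matplotlib 3.10.9.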

Additional observations from a re-analysis of the deposited data

Results flagged for a closer look

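Among 17 sets of 4 library values, 2 had a library apart from the others by Dixon's criterion, where chance gives about 1 in 20, or 0.85 here. The Galr1 level in glutamatergic-like cells was 13.0 CPM in library 3, with the nearest library at 45.2 CPM. The share of glutamatergic-like cells with a Gal UMI at 1000 UMIs was 10.7% in library 3, with the nearest at 6.82%. Library 3 held 17 of these cells, with 1 Galr1 UMI in 1 cell and 22 Gal UMIs in 2 cells, so both values rest on very few cells. Neither value was traced further.

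Barcodes that were not kept as cells also carried UMIs of these genes. They held 79 Avp UMIs (7.54% of the Avp UMIs in the tables), 65 of them in library 1. They held 233 Gal UMIs (9.77%) and 12 Galr1 UMIs (8.51%). For Oxt they held 99 UMIs, 81.1% of all, of which 84 lay in 6 barcodes of library 2. The leading barcode had 51 Oxt UMIs among 360.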

How the results depend on the processing

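Of the members' values, 155 moved by less than their spread between libraries and 22 by more. Of the named genes' fold changes under alternatives, 505 kept direction and side of the threshold, 185 were no longer past it and 11 reversed. Of the counts of genes, 39 stayed within 1.5 times the main count and 29 did not. The settings without the 26-cell cluster were chosen after seeing the data. They gave an Avp level of 1.33 CPM in GABAergic-like neurons and a top-10 share of 62.2% for Gal. For Avp that share was 100%, which was fixed in advance because only 8 cells with an Avp UMI remained. The difference in Gal share between the neuron and background classes was 1.43 points. Between Avp-positive and Avp-negative cells it was -1.17 points, on those 8 cells with 15 Avp UMIs. The top-10 share of Avp was 92.1% over all kept cells, 85.1% over all deposited barcodes and 97.6% to 99.8% leaving out each library. That of Gal was 65.6%, 59.2% and 75.7% to 86.7%. Thinning to 2000 UMIs gave differences of 0.971 points for Avp, 3.61 for Gal and 1.74 for Galr1, and no thinning 0.771, 4.06 and 3.50. Without thinning, Galr1 differed by 8.77 points between Gal-positive and Gal-negative cells and by 17.6 between Avp-positive and Avp-negative cells. From at least 2 UMIs, Gal in Avp-positive cells differed by 82.5 points, against 39.3.

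In the Gal split, where the main count was 102 higher and 89 lower, DESeq2's Wald test gave 61 and 29, the fit with no replicate block 38 and 32, and no count filter 101 and 129. At matched depth it was 18 and 13 of 2860 genes, at matched cluster and depth 6 and 2 of 2300, and without the 26-cell cluster 50 and 50, of which 48 and 45 were in the main calls. Leaving out each library gave 45 to 93 and 43 to 73. In the Galr1 split, at 13 and 36, these were 2 and 4 by DESeq2, 3 and 6 with no replicate block, 9 and 83 with no filter, 0 and 2 at matched depth by edgeR (108 genes at an unadjusted p of 0.05), 0 and 3 at matched cluster and depth (79 unadjusted), 8 and 29 without the cluster, and 4 to 14 and 10 to 29 leaving out each library. Neuron against non-neuronal counts stayed within 1.5 times, at 3290 and 3225 with no replicate block. Reversed at matched cluster and depth were Npy (0.68), Penk (0.066) and Nr2f2 (-0.056) in the Gal split and Ecel1 (-0.27), Arpp21 (0.010), Avp (-1.27) and Gal (-0.30) in the Galr1 split. Arhgap36 reversed without the cluster (-0.43), and Npy in the Galr1 split by DESeq2 (-2.21), and it ran from -0.68 to 2.18 leaving out each library. The cause was not tested. Alternatives for the Avp split could not be run, since 2 libraries held at least 5 Avp-positive cells. Shallow cells limit all shares, and a cell without a UMI may still express the gene.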

Other observations

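Other peptides in Gal-positive and Galr1-positive GABAergic-like neurons can be given as counts of cells. Of the 90 Gal-positive cells, 52 had Pnoc, against 386 of 1959 Gal-negative cells, 48 had Cartpt against 410, 32 had Cck against 159 and 27 had Tac1 against 290. Penk was found in 10 of 90 against 658 of 1959. Of the 74 Galr1-positive cells, 31 had Pnoc, against 407 of 1975. These counts come from cells of unequal depth and follow the same split as the fits.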
